A study of Bos taurus with 13 samples.

Results

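Eosinophils are granulocytes that leave the bone marrow under the control of interleukin 5, follow eotaxins into tissues and release cationic granule proteins and lipid mediators, and they are known in cattle for responses to parasites and in allergy. Glucocorticoids are known to lower the number of eosinophils in blood. The genes described here are the entries of the blood counts named *CCR3*, *IL5RA*, *EPX*, *PRG3* or *ALOX15*, and 4 of these 5 were found among 16095 named genes, while *EPX* was not analysed here. *CCR3* is the eotaxin receptor, *IL5RA* the specific chain of the interleukin 5 receptor, *PRG3* a granule protein related to major basic protein, and *ALOX15* a lipoxygenase that makes hydroxylated lipid mediators.

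Whole blood was taken from the tail vein of lactating cows of 1 herd, labelled Italian Red Pied and called Italian Simmental by the authors. It was collected into tubes that fix RNA at sampling, and total RNA was sequenced without removal of globin transcripts. From the herd the 10 cows highest and the 10 lowest in milk cortisol were chosen, and gene counts of 13 of them were analysed, 7 with high cortisol (replicates 1 to 7) and 6 with low cortisol (replicates 8 to 13). No cow was treated, and the groups are the ends of a natural distribution, so other differences between the cows cannot be told apart from cortisol. Named genes held 11045599 to 28124575 counts per cow. Of these the haemoglobin genes *HBB*, *HBG*, *HBM* and *HBQ1* together took 0.0114% to 0.815%, the most in replicate 7 of the high group. No other haemoglobin gene was included in this share. Marker genes of T cells (*CD3E*, mean 1129 CPM), of neutrophils (*CSF3R*, mean 3530 CPM) and of red cells (*HBB*, mean 1250 CPM) were all present. CPM is a count scaled to a common library size, here after scaling of the libraries by the trimmed mean of M-values (TMM).

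The 3 receptor and enzyme genes of eosinophils were detected in all cows and rose and fell together from cow to cow, over a range of 5.11-fold to 7.56-fold, while the granule gene *PRG3* was near the limit of detection. Their levels did not separate the cortisol groups. High and low cows overlapped for each of the 4 genes, and the cow with the highest level of *CCR3*, *IL5RA* and *ALOX15* was the same animal, replicate 3 of the high group.

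*CCR3*, which lies on chromosome 22 of UMD3.1 from 53761589 to 53762665 as a single exon of 1077 bases, had 74.6 to 299.6 CPM in the high group (median 107) and 58.6 to 200.1 CPM in the low group (median 87.2). Replicate 3 of the high group was highest and replicate 12 of the low group lowest, and 6 of 7 high cows lay inside the range of the low cows. These values rest on 650 to 3685 counts per cow. *IL5RA*, with 10 exons from 23308621 to 23340998 of the same chromosome, had 9.16 to 47.0 CPM in the high group (median 12.1) and 6.22 to 24.7 CPM in the low group (median 13.7). The high group held the highest cow and the low group the lowest, and the median of the high group was the lower of both medians. In replicate 12 of the low group the value of *IL5RA* came from 69 counts, with a 95% exact Poisson interval of 4.84 to 7.87 CPM (counting error only), so the span of 7.56-fold across cows exceeds the counting error of its lowest value.

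*ALOX15*, with 14 exons on chromosome 19 from 27331075 to 27339653, was the most abundant of the 4 genes in CPM. It had 116 to 802 CPM in the high group (median 193) and 108 to 358 CPM in the low group (median 239.6). Again replicate 3 of the high group stood highest, followed by replicate 2 of the high group with 485 CPM, and the remaining 5 high cows had 241 CPM or less. *PRG3*, on chromosome 15 from 81920285 to 81956829 in 6 exons, had 165 counts over all 13 cows and between 0 and 64 in a cow. Its level was 0 to 2.95 CPM in the high group (median 0.303) and 0.153 to 1.80 CPM in the low group (median 0.339). The count of 0 was in replicate 2 of the high group, where it allows a level of up to 0.174 CPM (3 counts, counting error only), although this cow ranked 2nd of 13 for *IL5RA* and *ALOX15*. The highest *PRG3* was in replicate 7 of the high group (64 counts), followed by replicate 3 of the high group (26 counts) and replicate 9 of the low group (24 counts), and the other 10 cows had 16 counts or fewer.

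**Figure D1:**
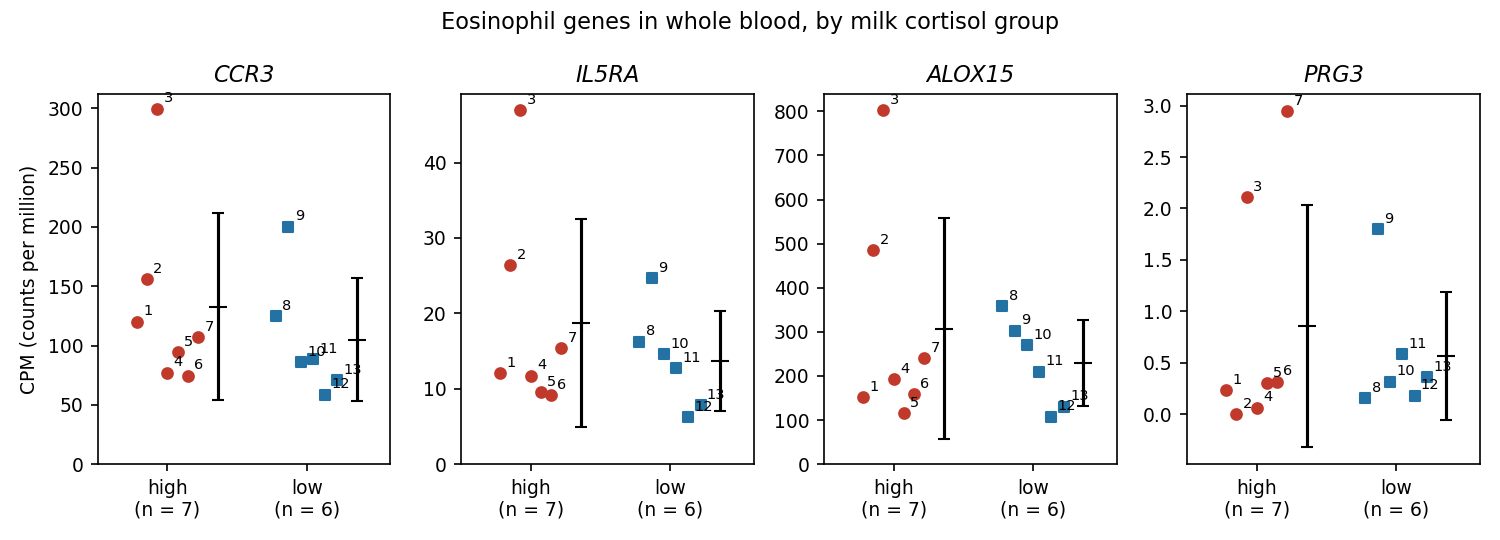
CPM of the 4 eosinophil genes (vertical axes, each from its own scale) in 7 high and 6 low cortisol cows, where each point is a cow labelled with its replicate number and the bar beside each group is the mean ± SD (for PRG3 the bar runs below 0, which no cow can). Replicate 3 is highest for CCR3 (299.6 CPM), IL5RA (47.0 CPM) and ALOX15 (802 CPM), replicate 7 is highest for PRG3 (2.95 CPM), and the groups overlap in every panel.

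Levels of different genes were compared as CPM per kilobase of exon. On this scale *CCR3* had a median level of 87.5 over the 13 cows, *ALOX15* 72.8, *IL5RA* 10.0 and *PRG3* 0.375. *CCR3* was above *ALOX15* in 10 of 13 cows, with a ratio between 0.857 and 2.17, so these neighbours in the order were not separated in every cow. *CCR3* was above *IL5RA* in 13 of 13 cows, by a ratio of 6.96 to 11.8 (median 9.05), and *IL5RA* was above *PRG3* in 13 of 13 cows. The ratio of *CCR3* to *IL5RA* therefore spanned less than 2-fold across cows while *CCR3* spanned 5.11-fold and *IL5RA* 7.56-fold. Without replicate 3 of the high group the spans were 3.42-fold for *CCR3*, 4.24-fold for *IL5RA* and 4.51-fold for *ALOX15*. *CCR3* had a higher level per kilobase than 92.9% of all named genes, *ALOX15* than 91.3% and *IL5RA* than 62.3%. The models of *CCR3* and *IL5RA* have exon lengths that are multiples of 3 and may lack untranslated ends, in which case their true levels per kilobase are not captured by these lengths.

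The spread between cows was wide for genes of this abundance. The SD of log2 CPM over 13 cows was 0.66 for *CCR3*, 0.78 for *IL5RA* and 0.84 for *ALOX15*, against a median SD of 0.31 over the 11033 genes tested. Among tested genes within 0.5 log2 CPM of its own mean level, *ALOX15* varied more than 99.6% of 726 genes, *IL5RA* more than 98.7% of 1514 and *CCR3* more than 98.6% of 1401. In whole blood, fewer eosinophils and less RNA per eosinophil cannot be told apart, and no cell counts were used here.

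The levels of the receptors followed each other closely. For *CCR3* and *IL5RA* the Pearson correlation of log2 CPM over 13 cows was 0.947 (two-sided permutation test with 100000 resamples, p = 1e-05, the smallest it can give, and 3e-05 after Benjamini-Hochberg adjustment over 3 pairs), and Spearman's rho was 0.912 (permutation p = 1e-04, adjusted p 1.5e-04). When high replicate 3 and low replicate 9 were left out, the cows farthest from the median of *CCR3*, the value was 0.881. Within the high group r was 0.947 (n = 7) and within the low group 0.941 (n = 6).

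*ALOX15* followed *IL5RA* with r = 0.955 (permutation p = 2e-05, adjusted p 3e-05) and rho = 0.951 (permutation p = 1e-05, adjusted p 3e-05), and 0.889 remained as r with replicates 2 and 3 of the high group left out. It followed *CCR3* less closely, with r = 0.844 (permutation p and adjusted p 3.7e-04) and rho = 0.775 (permutation p and adjusted p 0.00284), and r was 0.747 when high replicate 3 and low replicate 9 were left out. Both held within the groups, with 0.979 (n = 7) and 0.925 (n = 6) for *ALOX15* and *IL5RA* and 0.872 (n = 7) and 0.811 (n = 6) for *ALOX15* and *CCR3*. The difference between these correlations was not tested. The mean of the 3 correlations was 0.915, and all 3 pairs kept an adjusted p below the threshold of 0.05 when any 1 of the 13 cows was left out (lowest r of a pair 0.724). Over all pairs of the 11033 tested genes the median r was near 0, at -0.00228, with quartiles of -0.316 and 0.314.

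*PRG3* did not follow the other genes closely. Its Pearson r was 0.446 with *CCR3* (permutation p = 0.124), 0.386 with *IL5RA* (permutation p = 0.192) and 0.262 with *ALOX15* (permutation p = 0.390), with adjusted p between 0.186 and 0.390 over the 6 pairs of 4 genes, and rho was between 0.165 and 0.220 (adjusted p 0.594 for all 3). Replicate 2 of the high group shows the pattern, with 156 CPM of *CCR3* and no count of *PRG3*. Leaving out replicate 3 of the high and replicate 9 of the low group, r with *CCR3* was -0.135. It was 0.529 with *IL5RA* when replicates 2 and 3 of the high group were left out, and -0.145 with *ALOX15* when replicates 3 and 7 were. The cows left out differed between the pairs, so the signs of these values cannot be compared across the pairs. For *IL5RA* they included replicate 2 of the high group, the cow with no count of *PRG3*. Within the high group (n = 7) r was 0.380, 0.317 and 0.261 with *CCR3*, *IL5RA* and *ALOX15*. Within the low group (n = 6) it was 0.688, 0.626 and 0.288.

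**Figure D2:**
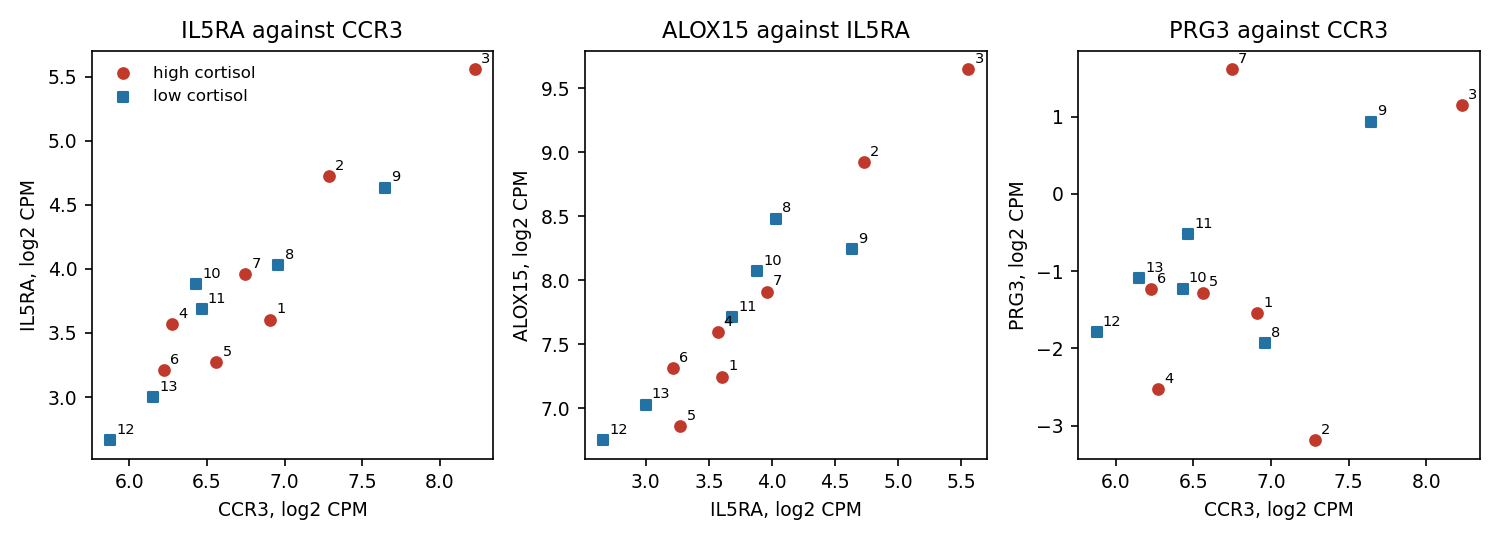
Log2 CPM of IL5RA against CCR3, of ALOX15 against IL5RA and of PRG3 against CCR3, where each point is 1 of 13 cows (circles, high cortisol; squares, low cortisol) labelled with its replicate number. The first 2 panels show the close relations (r = 0.947 and 0.955), and in the third PRG3 is lowest in replicate 2 and highest in replicate 7, away from the order of CCR3.

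Other genes were ranked by their mean Pearson r with *CCR3*, *IL5RA* and *ALOX15* over the 13 cows, as a description of 11030 genes from the same libraries. The 10 most alike were *ALOX5* (0.918), *MPO* (0.915), *ADORA3* (0.914), *SV2B* (0.911), *CEBPE* (0.910), *SMPD3* (0.903), *GPR4* (0.889), *RIBC1* (0.889), *GATA1* (0.883) and *COPG2* (0.880). *ALOX5* makes the first step of leukotriene synthesis and *ADORA3* is an adenosine receptor. *CEBPE* and *GATA1* are transcription factors of granulocyte and of eosinophil and erythroid development, and *SMPD3* is a sphingomyelinase known from eosinophils. *MPO*, the myeloperoxidase of neutrophil granules, is a close relative of the eosinophil peroxidase *EPX*, and reads shared between such relatives are uncertain. All 10 genes were highest in replicate 3 of the high group, with 255 CPM of *ALOX5* against 28.0 CPM in the lowest cow, and 7 of the 10 were lowest in replicate 12 of the low group. These cows are also the highest and lowest for the 3 members, so the shared extremes largely follow from how the 10 genes were chosen. The same 10 genes came first when the mean of each cortisol group was removed. Without replicate 3 of the high group their mean r was 0.777 to 0.848 and 8 of them stayed among the first 10. Gene by gene, *IL5RA* was the tested gene most like *CCR3* and *ALOX15* the one most like *IL5RA*, while *ALOX15* ranked 20th of 11032 genes for *CCR3*, and for *ALOX15* itself *IL5RA* ranked 3rd and *CCR3* 26th. Outside the members, *MPO* (0.927), *ADORA3* (0.918) and *GFRA3* (0.912) were closest to *CCR3*, *ADORA3* (0.938), *ALOX5* (0.937) and *CEBPE* (0.936) to *IL5RA*, and *SMPD3* (0.968), *ALOX5* (0.957) and *PADI4* (0.942) to *ALOX15*.

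**Figure D3:**
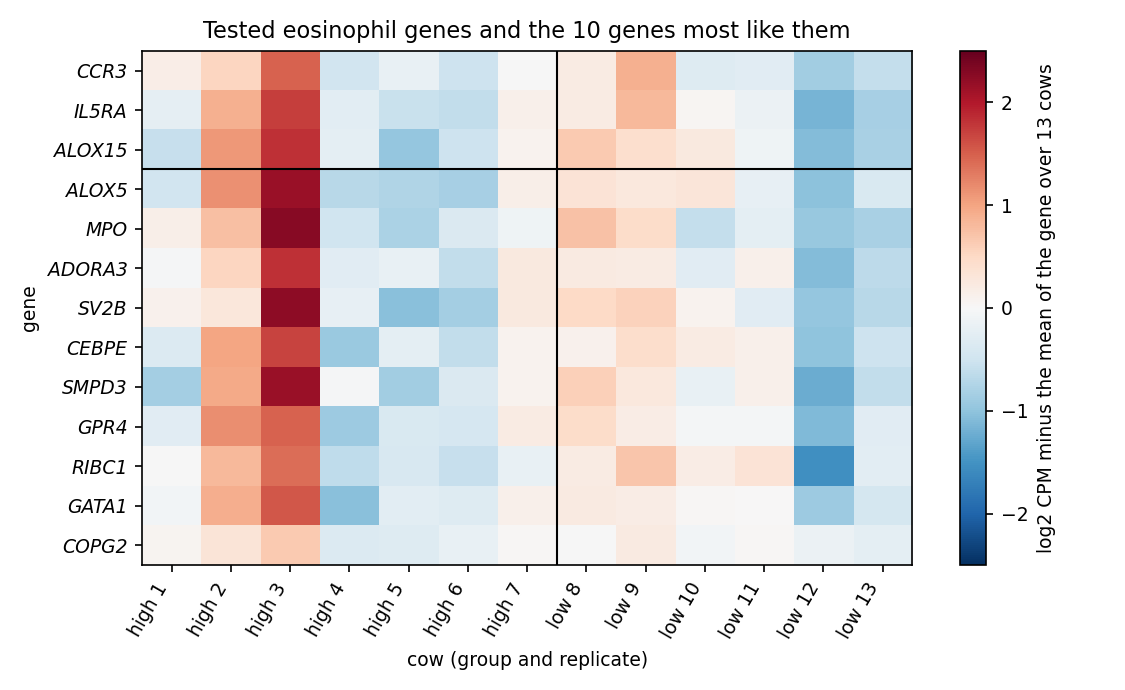
Log2 CPM of CCR3, IL5RA and ALOX15 (above the line) and of the 10 genes with the highest mean r with them, each minus its own mean over 13 cows (colour), in every cow. Replicate 3 of the high group is the highest cow for all 13 genes, replicate 12 of the low group is below the mean in all, and both groups hold cows above and below the mean.

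No shift of the eosinophil genes between the cortisol groups was larger than the spread between cows. The log2 fold change of *CCR3*, high against low, was 0.34 (standard error 0.33, 95% interval -0.36 to 1.04) where high cows averaged 133 CPM ± 78.7 (SD, n = 7) and low cows 105 CPM ± 51.7 (SD, n = 6). For *IL5RA* it was 0.44 (standard error 0.40, interval -0.40 to 1.28) from 18.8 CPM ± 13.8 (SD, n = 7) against 13.7 CPM ± 6.62 (SD, n = 6). For *ALOX15* it was 0.42 (standard error 0.44, interval -0.52 to 1.36) from 307 CPM ± 250.4 (SD, n = 7) against 229.6 CPM ± 98.3 (SD, n = 6). Before adjustment, the quasi-likelihood test of edgeR gave a p of 0.321, 0.281 and 0.358 in this order, and the adjusted p over all genes was 0.998 for each. The intervals run from a fold of 0.697 to one of 2.56 for *ALOX15* and from 0.778 to 2.06 for *CCR3*, so 13 cows leave room for differences of these sizes in either direction. For none of the 3 genes did all high cows lie on 1 side of the median of the low group, and 5 of 7 were above it for *CCR3*, 3 for *IL5RA* and 3 for *ALOX15*.

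Of the 3 members that passed the filter on low counts, 0 were called at an adjusted p of 0.05, beside 0% of the 11033 genes tested, and 0 had an unadjusted p below 0.05, beside 2.09% (231 genes). DESeq2 called 1 gene, which is not one of the members, and gave 348 genes an unadjusted p below 0.05, and limma-voom called 0 and gave 218. In exact two-sided permutation tests of log2 CPM over all 1716 ways to place 7 and 6 cows (smallest possible p 5.8e-04), p was 0.442 for *CCR3*, 0.468 for *IL5RA*, 0.670 for *ALOX15* and 0.942 for *PRG3* (4 tests, each with an unadjusted p). *PRG3* did not pass the filter and has a log2 fold change only from the fit without a filter, 0.60 (standard error 0.88, interval -1.25 to 2.46, unadjusted p 0.501 by edgeR), while its mean log2 CPM was lower in the high group (difference -0.06, or -0.33 with a prior count of 0.5), so it has no settled direction.

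The positive fold changes of the edgeR fit depended most on 1 cow. Without replicate 3 of the high group they were 0.0023 for *CCR3*, 0.031 for *IL5RA* and -0.034 for *ALOX15* on the log2 scale. The difference in mean log2 CPM was then 0.078 for *CCR3*, 0.076 for *IL5RA* and -0.073 for *ALOX15*. Without replicate 9 of the low group, which ranked 2nd for *CCR3*, the fold changes in this order were 0.63, 0.69 and 0.51. Without replicate 7 of the high group, which had the most haemoglobin, they were 0.39, 0.48 and 0.47. Leaving out replicate 12 of the low group lowered them to 0.22, 0.30 and 0.27. The median log2 fold change of all tested genes was 0.01.

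**Figure D4:**
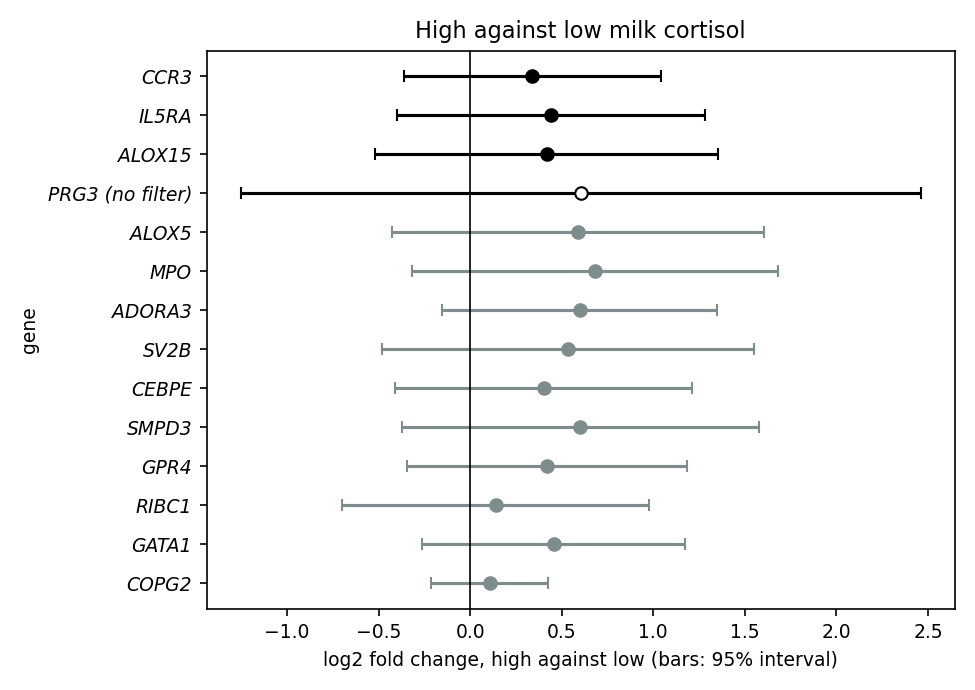
Log2 fold change of high against low cortisol cows with its 95% interval (bars) from edgeR, for the eosinophil genes (black; the open circle is PRG3 from the fit without a filter) and the 10 genes most like them (grey). Every interval includes 0, and the widest is that of PRG3 (-1.25 to 2.46).

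Other genes of eosinophil biology were taken as 6 lists of 56 genes by role, of which 42 were matched by name and 30 tested. By edgeR, 16 of the 30 were higher and 14 lower in the high group, 0 had an adjusted p below 0.05, and 2 had an unadjusted p below 0.05 (6.67%, beside 2.09% of all genes). These were the transcription factor *GATA2*, shared by eosinophil and basophil precursors (log2 fold change 0.42, standard error 0.19, unadjusted p 0.0411), and *ADGRE1*, a surface receptor that marks human eosinophils (-0.85, standard error 0.25, unadjusted p 0.00309). The lists were chosen with earlier results of these data known, so setting 6.67% beside 2.09% is no test of an excess. *ADGRE1* had a mean r of -0.17 with the members. The median log2 fold change of the 30 genes was 0.02.

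Of the receptors listed, 8 of 11 were tested and 6 of them were higher in the high group, none at an unadjusted p below 0.05. Those with the highest CPM, a scale that does not correct for gene length, were *CSF2RB* (153 CPM), the chain shared by the receptors for interleukin 5, interleukin 3 and GM-CSF, *CSF2RA* (132 CPM) and the histamine receptor *HRH4* (53.3 CPM), while per kilobase *CSF2RA* (median 112) was above *CSF2RB* (54.1). *CSF2RB*, the signalling partner of *IL5RA*, had a mean r of 0.35 with the members, and *CSF2RA* one of -0.07. *PTGDR2*, the prostaglandin D2 receptor, had 0.75 and *HRH4* 0.67.

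Of the 8 ligands matched, 7 had at most 28 counts in a cow and did not pass the filter. Counts of *IL5* and *CSF2* were 0 in all 13 cows, which allows up to 0.110 to 0.270 CPM in a cow (3 counts), and the eotaxin genes *CCL11* and *CCL24* had at most 2 and 8 counts in a cow. *CCL8* reached 28 counts, and *CCL5*, a ligand of *CCR3* made by T cells and NK cells, was the only ligand tested, with 159 CPM and a log2 fold change of 0.01 (unadjusted p 0.980 by edgeR).

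Among transcription factors *SPI1* (718 CPM), *STAT6* (343 CPM) and *XBP1* (287 CPM) had the highest CPM, with mean r of 0.35, 0.06 and -0.46 with the members, while *GATA1* (27.9 CPM) and *CEBPE* (21.6 CPM) were among the 10 genes most like them. In the lipid mediator list *ALOX5AP* (152 CPM, mean r 0.67), *LTA4H* (109 CPM, 0.35) and *ALOX5* (71.2 CPM, 0.92) had the highest CPM. *LTC4S*, which makes leukotriene C4, had a mean r of -0.49 at 10.4 CPM, and its median level per kilobase (18.2) was close to that of *ALOX5* (19.0). Of the 5 genes listed as granule proteins only the ribonuclease gene *RNASE6* was matched by name. It had 409.9 CPM, a log2 fold change of 0.27 (unadjusted p 0.0650 by edgeR) and a mean r of 0.35. Which blood cells gave this level was not tested, so it is not read as a level of eosinophil granule genes.

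Of 8 tested relatives and neighbours of the members in the genome, *MPO* was among the 10 genes most like them and the other 7 were not. *CCR2* and *XCR1*, the nearest named genes to *CCR3*, had mean r of 0.13 and -0.36, and *CCRL2* had -0.14. *TRNT1*, beside *IL5RA*, had 0.16 and *CRBN*, of the same list, 0.61, and *ALOX12*, the nearest gene after *ALOX15*, had -0.32 at 7.66 CPM. *LPO*, the lactoperoxidase, had at most 8 counts in a cow. None of the 4 members overlapped another named gene in these gene models.

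Marker lists of 8 other cell types were scored in every cow as the mean of centred log2 CPM, and 24 relations with the 3 tested members were computed. None passed after adjustment. The strongest was that of *ALOX15* with the neutrophil list (r = 0.721, permutation p = 0.0055, adjusted p 0.132; rho = 0.725, adjusted p 0.168), which was 0.834 within the high group (n = 7), 0.808 within the low group (n = 6) and 0.613 with high replicates 2 and 3 left out. That list includes *PADI4*, one of the genes most like *ALOX15*, and with *PADI4* left out r was 0.582 (permutation p = 0.0377, not adjusted). Within the groups it was then 0.734 (high, n = 7) and 0.710 (low, n = 6). *IL5RA* had r = 0.574 (adjusted p 0.472) and *CCR3* r = 0.488 (adjusted p 0.716) with the neutrophil list. With *PADI4* left out these were 0.424 for *IL5RA* and 0.347 for *CCR3*. With the basophil and mast cell list r was 0.205 for *CCR3*, 0.299 for *IL5RA* and 0.215 for *ALOX15* (adjusted p 0.847 to 0.855), although *GATA2* of that list had a mean r of 0.69.

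*PRG3* differed from the other members in its leading lists, the erythroid one (r = 0.583, permutation p = 0.0350, rho = 0.357, adjusted p 0.380 over 32 relations) and the T cell one (r = 0.555, permutation p = 0.0508, adjusted p 0.380), for which rho was 0.736 (permutation p = 0.00539, adjusted p 0.112). Replicate 7 of the high group, with the most *PRG3*, also had the highest erythroid score, and without replicates 3 and 7, the cows farthest from the median of *PRG3*, r was 0.063 with the erythroid list and 0.712 with the T cell list.

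**Figure D5:**
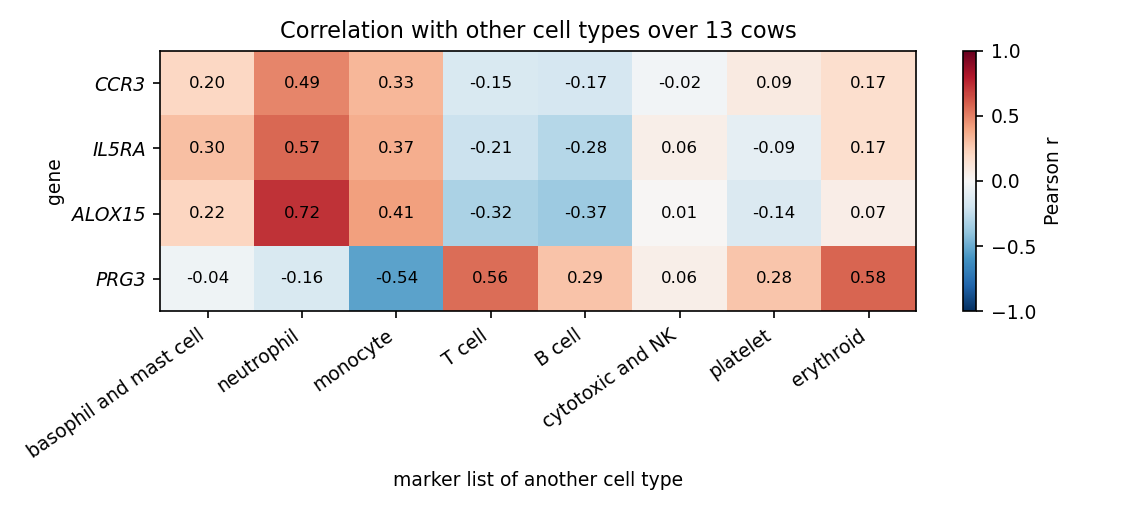
Pearson r (colour and printed value) over 13 cows of the log2 CPM of each eosinophil gene with the score of 8 marker lists of other blood cells. ALOX15 with the neutrophil list has the largest value (0.72), the row of PRG3 has other signs than the rows above it for basophils and mast cells, neutrophils, monocytes, T cells and B cells, and no relation passed the adjusted threshold.

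The marker lists were also set against the cortisol groups, gene by gene. Of the erythroid markers 6 of 7 were matched and 4 tested, and 3 of the 4 (*HBB*, *HBM* and *ALAS2*) had an unadjusted p below 0.05 by edgeR (beside 2.09% of all genes), with positive fold changes. The list summed to 373 to 7839 CPM in the high group and to 138 to 569.7 CPM in the low group. With the haemoglobin share of counts as a covariate the log2 fold changes were 0.26 for *CCR3*, 0.34 for *IL5RA* and 0.40 for *ALOX15*. The neutrophil list (5 of 8 matched, 5 tested) summed to 3048 to 6148 CPM in the high and 4374 to 7788 CPM in the low group. Of its 5 tested markers 4 were lower in the high group, with *CSF3R* at an unadjusted p of 0.0324 by edgeR (log2 fold change -0.45). *CSF3R* (mean 3530 CPM) made up most of this sum. The basophil and mast cell list (7 of 7 matched, 5 tested) summed to 37.9 to 63.2 CPM in the high and 27.1 to 43.3 CPM in the low group. All 5 tested markers were higher in the high group (log2 fold change 0.11 to 0.58), with *GATA2* at an unadjusted p of 0.0411 by edgeR. Of the other 5 lists no marker had an unadjusted p below 0.05, and 4 of 5 monocyte, 2 of 7 T cell, 6 of 7 B cell, 7 of 7 cytotoxic and NK and 0 of 5 platelet markers had a positive fold change. None of these markers passed an adjusted p of 0.05. Their part in the values of the eosinophil genes was not tested.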

How the data were processed

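Whole blood RNA of 13 cows was sequenced, 7 of the high and 6 of the low milk cortisol group, as given in the sample titles. The authors deposited raw counts per gene name, and per the file headers these were made with featureCounts 1.4.6-p3 over exons of Ensembl release 88 for UMD3.1, with no option for strand or shared reads. The labels and methods name STAR 2.7.3, Subread 1.6.5 and ARS-UCD1.2 instead, so the deposited counts may come from another run, and positions are printed on UMD3.1. Reads of genes without a name share 1 entry (13.9% to 16.7% of counts), which was left out. No pair of libraries was identical.

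Counts were scaled by TMM to CPM and, with a prior count of 2, to log2 CPM. Groups were compared with edgeR 4.0.16 (R 4.3.3, robust quasi-likelihood fit, no covariates) on the genes kept by filterByExpr at a minimum count of 10 and a total of 15, with Benjamini-Hochberg adjustment over all genes. Standard errors are the fold change over the square root of F. DESeq2 1.42.0, limma 3.58.1 (voom), 2 other scalings, other filters, haemoglobin left out or as a covariate, and each cow left out were tried, and the tests were run on simulated counts first. The members, the lists and the named genes (every listed gene with an unadjusted p below 0.05, the 3 of highest mean CPM in each list, relatives and neighbours, and the genes most like the members) were chosen with earlier results of these data known. Taking *PRG3* into the correlations, leaving out *PADI4* and ranking and spans without replicate 3 of the high group were added after the values were seen. The libraries are of separate cows, so p-values judge group differences against the spread between cows and correlations against values shuffled among cows. The values of 1 listed relative are not reported here.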

Additional observations from a re-analysis of the deposited data

How the results depend on the processing

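No paired analysis was possible because the groups are different cows and the sample titles name no pairs. The number of genes called was 0 in the edgeR fit and 1 with DESeq2, and 0 with each of the other alternatives, each cow left out included. Without 1 cow the log2 fold change lay between 0.0023 and 0.63 for *CCR3*, between 0.031 and 0.69 for *IL5RA* and between -0.034 and 0.59 for *ALOX15*, and the difference in mean log2 CPM between 0.078 and 0.51, between 0.076 and 0.53, and between -0.073 and 0.39, with the lowest value of each without replicate 3 of the high group. For *PRG3* this difference lay between -0.50 and 0.31, and it was positive when high replicate 1, 2 or 4 or low replicate 9 or 11 was left out. With limma-voom the log2 fold changes were 0.25 for *IL5RA* and 0.22 for *ALOX15*, and the cause was not tested. All alternatives left the 3 members above an adjusted p of 0.05. The 3 pairs of members kept their call under both other scalings, a prior count of 0.5, ranks and removed group means. Their mean r was 0.850 to 0.934 without 1 cow and 0.640 with *PRG3* taken in, a gene of 0 to 64 counts. *PRG3* and 7 of the 8 matched ligands had too few counts to pass the filter, so the values of *PRG3* carry the widest counting error of the 4 members.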

Other observations

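A few genes outside the 10 most alike are given here with their mean r with *CCR3*, *IL5RA* and *ALOX15* over the 13 cows. *PADI4*, a peptidylarginine deiminase of granulocytes, ranked 13th of 11030 genes (0.862) and had 99.8 to 417 CPM. *IDO1*, which breaks down tryptophan, had 215 to 833 CPM and a mean r of 0.646, and ranked only 176th. The listed genes *PTGDR2* (0.749), *GATA2* (0.691), *ALOX5AP* (0.673) and *HRH4* (0.672) were above it. *SLC29A1*, a nucleoside transporter, ran the other way, with a mean r of -0.629 at 7.07 to 19.2 CPM. These values are descriptions over 13 cows, and *PADI4*, *IDO1* and *SLC29A1* were singled out after their values were seen.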
